A study of Homo sapiens with 18 samples.

Results

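Basal expression under an XBP1 knockdown was examined in A1847 cells, a human ovarian cancer line, by comparing cells carrying an shRNA against XBP1 with control cells, both treated with vehicle. Of the 18 RNA-seq libraries of the series, 6 belong to this comparison, which were chosen by their labels as 3 XBP1 knockdown replicates and 3 control replicates under vehicle. Control cells are wild type by their labels, and a scramble control shRNA is listed among the study's vectors without saying which libraries carried it. The remaining 12 libraries are tunicamycin-treated control and XBP1 knockdown cells and CARM1 knockout cells under both treatments. The knockdown was made with 1 lentiviral shRNA vector of the TRC library. Its sequence is not given in the sources used here, nor whether the cells were a pool or a clone. The labels do not say that replicates came from separate cultures, so that p-values measure only the spread between these samples, which may be technical.

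XBP1 encodes a basic leucine zipper transcription factor of the unfolded protein response. IRE1α, a sensor in the membrane of the endoplasmic reticulum (ER), cuts the XBP1 mRNA, and the religated form (XBP1s) encodes the active factor, which drives genes for protein folding, transport and degradation in the secretory pathway. ATF6 and PERK are the other sensors of this response, and PERK acts through the translation of ATF4. Tunicamycin blocks N-linked glycosylation and thereby loads the ER with unfolded proteins, whereas vehicle-treated cells have no added ER stress.

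The library totals ran from 12081810 to 13788924 counts in control and from 12660121 to 13339234 in knockdown cells. Only the 3 prime ends of transcripts were sequenced, as 75 nt reads, and counts per gene do not separate spliced from unspliced XBP1. Levels are given as CPM, counts scaled to library size with TMM factors. Correlations of log2 CPM across 17317 genes were 0.987 to 0.989 within groups and 0.983 to 0.987 between groups, given as a description since genes are not independent. Of 19 ovarian epithelial markers in the table of these 6 libraries, 10 had at most 3 counts in every control library and 12 in every knockdown library, PAX8 and WT1 among them. WT1 was at 0 in all 6 libraries and PAX8 reached 2 counts at most, and these defining markers of the labelled tissue are thus absent, while the epithelial keratins KRT8 and KRT18 were present. The sum over these markers was 322 to 342 CPM in control and 138 to 152 CPM in knockdown cells. The leukocyte, endothelial and stromal markers summed to 694 to 750 CPM in control and 541 to 565 CPM in knockdown cells, with the endothelial markers CDH5, KDR and TEK at 0 and nearly all of the sum from ACTA2, PDGFRA and THY1. The CARM1 knockout libraries, labelled as the same line, stand apart from these 6 in such markers, with PAX8 at 61.2 ± 4.18 CPM (SD, n = 3) against 0.0503 ± 0.0436 CPM in control and PDGFRA at 0.0839 ± 0.145 against 204 ± 2.80 CPM. In bulk RNA, fewer cells of a kind and less RNA per cell cannot be told apart.

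XBP1 mRNA was lower in every knockdown library. It was measured at 51.1, 43.2 and 43.5 CPM in control and at 25.5, 24.1 and 26.5 CPM in knockdown cells. The groups did not overlap, and the knockdown libraries held 55.0% of the control level by the fitted fold change (log2 fold change −0.86, standard error 0.0859, adjusted p = 2.54e-05). With 1 library left out in turn, the log2 fold change lay between −0.90 and −0.78 and XBP1 was called each time. XBP1 (ENSG00000100219) lies on chromosome 22 from 29190543 to 29196585 in GRCh37, and of its 12 tested neighbours in 22q12 0 were called by edgeR or DESeq2 and 2 had an unadjusted p under 0.05, with a median log2 fold change of 0.019. CARM1, the arginine methyltransferase that the series is about, was 165, 162 and 160 CPM in control and 193, 189 and 188 CPM in knockdown cells (log2 fold change 0.22, adjusted p = 0.017). This call was lost without replicate 1 or replicate 2 of the control or replicate 2 of the knockdown, while the log2 fold change stayed between 0.21 and 0.23.

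Across all genes, 359 of 17317 were higher in the knockdown (2.07%) and 524 were lower (3.03%) at an FDR of 5% by edgeR's quasi-likelihood test, and 3207 had an unadjusted p under 0.05. The share of false calls may lie above the nominal 5%, as it did in simulated counts. Most changes were small. A fold of at least 2 was reached by 33 of the higher and 92 of the lower genes, and 280 higher and 287 lower genes were within 1.5-fold. The replicates of the groups did not overlap for 356 of the higher and 517 of the lower genes, against 23.6% of all genes tested. These counts depended on single libraries. Without replicate 2 of the control, 146 genes were higher and 289 lower, and without replicate 3 of the control 580 and 654. Without replicate 1 of the control they were 168 and 309, without replicate 2 of the knockdown 160 and 299, and without replicate 3 of the knockdown 228 and 346. In all 6 fits without 1 library, 109 of the higher and 231 of the lower genes stayed called, and DESeq2 also called these 109 and 231.

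**Figure D1:**
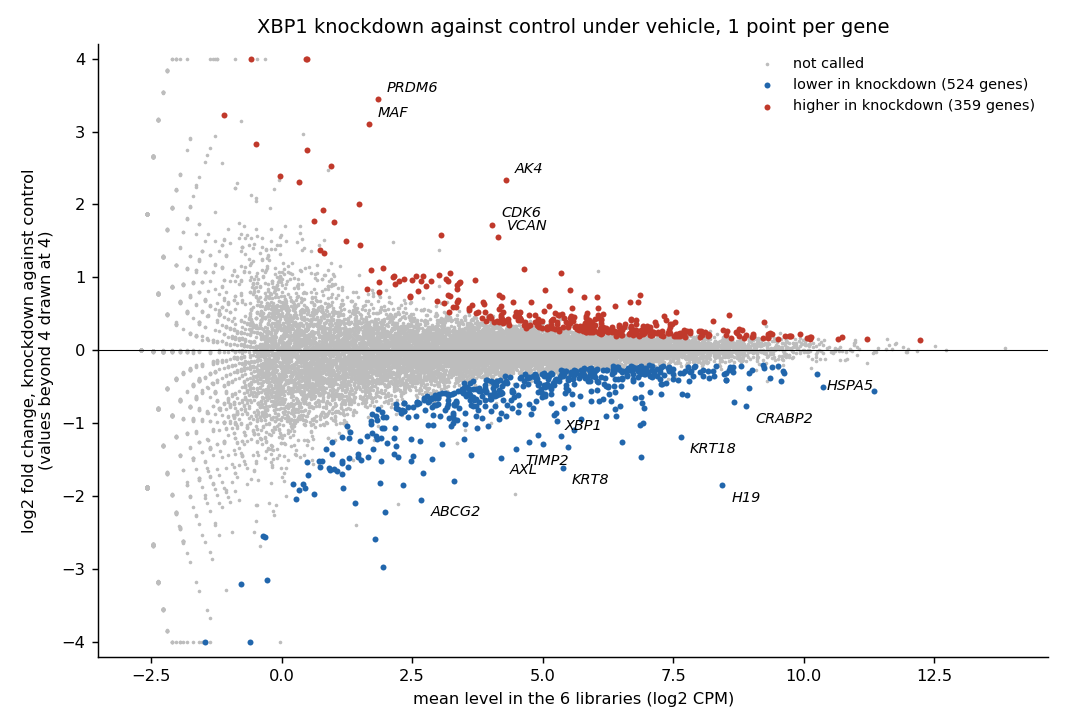
Each point is a gene, with its mean level in the 6 vehicle libraries (log2 CPM) on the x axis and its log2 fold change, knockdown against control, on the y axis, with values beyond 4 drawn at 4. Red and blue points are the 359 higher and 524 lower genes. H19 (−1.85) and KRT18 (−1.19) lie low at high levels and AK4 (2.34) lies high, while XBP1 itself is at −0.86.

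Without ER stress, the share of listed XBP1s targets called lower was near that of all genes tested. The list leaves out HSPA5, which the study treats as a target of CARM1 and XBP1s and which is given below. The study's own set of direct targets lower at the basal level was not compared. Of 40 tested members of a list of XBP1s targets (ER translocation, coat proteins, folding and degradation), 1 was lower and 0 were higher by edgeR, beside 3.03% lower over all genes. DESeq2 called 2 lower and 0 higher, and 8 members had an unadjusted p under 0.05, 6 of them below 0. The edgeR count was 2 without replicate 1 of the knockdown and 0 without replicates 1 or 2 of the control or 2 or 3 of the knockdown. Their median log2 fold change was −0.049, with 28 below 0 and 12 above, beside a median of −0.0032 with 8772 below 0 and 8289 above over all genes tested. The member called was ARFGAP3, a GTPase-activating protein for ARF1 at the Golgi. It had 30.9, 32.5 and 29.3 CPM in control and 25.001, 23.9 and 22.6 CPM in knockdown cells (log2 fold change −0.38, adjusted p = 0.0157). Every knockdown library was below every control library, but the call held in 2 of the 6 fits without 1 library and was lost without replicates 1 or 2 of the control or 2 or 3 of the knockdown (log2 fold change −0.42 to −0.34). SEC31A, a COPII coat subunit, had a log2 fold change of 0.0044, SSR1 of the translocon-associated complex −0.0025 and ERLEC1, a lectin of ER-associated degradation, −0.011. SERP1, which stabilises newly made membrane proteins, had 152, 148 and 152 CPM in control and 154, 160 and 161 CPM in knockdown cells (log2 fold change 0.06, adjusted p = 0.559). DNAJB9, an ER J-domain co-chaperone and a common readout of XBP1s, had 6.65, 8.40 and 7.23 CPM in control and 6.33, 4.68 and 6.39 CPM in knockdown cells. Its groups did not overlap, yet the difference was not called (log2 fold change −0.37, standard error 0.167, adjusted p = 0.257). LMAN1, a cargo receptor between ER and Golgi, had a log2 fold change of −0.15 (adjusted p = 0.0667).

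The ATF6 targets moved in both directions. Of 16 tested members, 2 were higher and 2 lower, beside 2.07% and 3.03% of all genes, and the median log2 fold change was 0.053. HSPA5, the ER chaperone BiP, had 1282, 1304 and 1245 CPM in control and 1044, 1013 and 1019 CPM in knockdown cells. All knockdown libraries were lower, at 79.9% of control (log2 fold change −0.32, standard error 0.0406, adjusted p = 0.00024), and the call held in each fit without 1 library. SDF2L1, an ER protein that works with J-domain co-chaperones of BiP, went the other way. It stood at 145 CPM in each control library and at 197, 186 and 178 CPM in knockdown cells (log2 fold change 0.36, standard error 0.0542, adjusted p = 0.0011), also called in every fit without 1 library. MANF, a secreted ER stress protein, was higher by 0.27 (adjusted p = 0.0176), and SELENOS, an adaptor of ER-associated degradation, was lower by −0.26 (adjusted p = 0.0437) on the log2 scale. The MANF call was lost without replicates 1 or 2 of either group (0.21 to 0.32), and the SELENOS call held only without replicate 1 of the knockdown (−0.34 to −0.22). The sensors themselves were not called, with log2 fold changes of −0.16 for ERN1 (IRE1α), −0.014 for ATF6 and −0.25 for EIF2AK3 (PERK), and of 13 tested sensors and relatives 0 were called by edgeR or DESeq2 and 0 had an unadjusted p under 0.05.

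**Figure D2:**
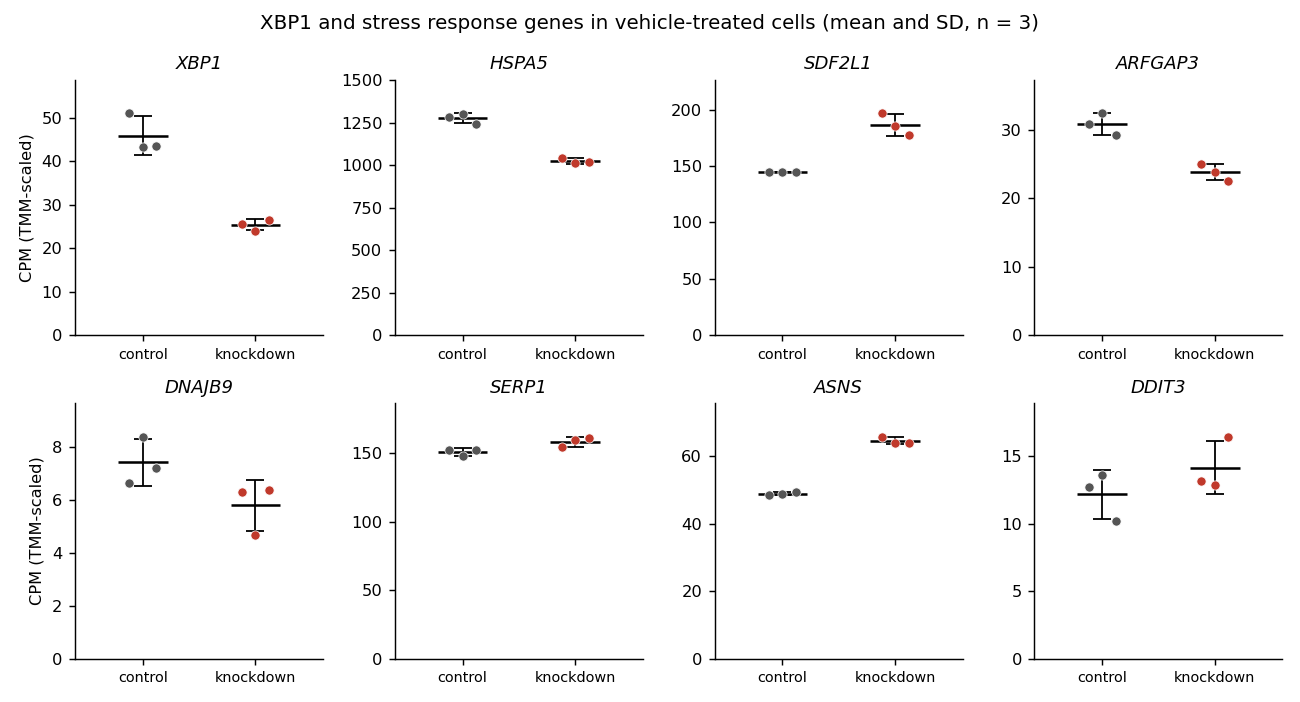
CPM of XBP1 and 7 stress response genes in each of the 3 control and 3 knockdown libraries under vehicle (points), with the group mean (line) and SD (bars) on linear axes from 0. XBP1, HSPA5 and ARFGAP3 are lower and SDF2L1 and ASNS higher in all knockdown libraries, whereas SERP1 was not called and the DDIT3 groups overlap.

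The promoters of 4 of these genes, which were lower, higher or not called, are shown because they carry an ER stress response element or a related one. XBP1 is the target of the shRNA, so that its decrease says nothing of its promoter. The sequences are the 250 bases before the start site, from RefSeq on GRCh38.p14, written 5′ to 3′ on the strand of the gene. Capitals mark ERSE, which is CCAAT, any 9 bases and CCACG, or the related ERSE-II, on either strand. XBP1 was lower, at chr22:28800570-28800819 on the minus strand, HSPA5 was lower, at chr9:125241344-125241593 on the minus strand, SDF2L1 was higher, at chr22:21642052-21642301 on the plus strand, and SERP1 was not called, at chr3:150546497-150546746 on the minus strand.
XBP1: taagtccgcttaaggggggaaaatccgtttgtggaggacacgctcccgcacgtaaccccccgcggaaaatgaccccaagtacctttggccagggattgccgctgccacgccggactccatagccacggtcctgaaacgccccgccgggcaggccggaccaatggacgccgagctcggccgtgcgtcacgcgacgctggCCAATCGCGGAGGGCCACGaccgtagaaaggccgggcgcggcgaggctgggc
HSPA5: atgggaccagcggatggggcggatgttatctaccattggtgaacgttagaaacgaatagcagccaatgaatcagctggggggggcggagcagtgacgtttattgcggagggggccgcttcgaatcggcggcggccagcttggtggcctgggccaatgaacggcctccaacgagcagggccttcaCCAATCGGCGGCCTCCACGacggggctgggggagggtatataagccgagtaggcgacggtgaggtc
SDF2L1: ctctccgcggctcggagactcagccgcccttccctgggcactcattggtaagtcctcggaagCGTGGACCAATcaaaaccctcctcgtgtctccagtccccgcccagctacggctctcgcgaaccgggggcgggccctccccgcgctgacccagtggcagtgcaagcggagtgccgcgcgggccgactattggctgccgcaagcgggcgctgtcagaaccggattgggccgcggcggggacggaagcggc
SERP1: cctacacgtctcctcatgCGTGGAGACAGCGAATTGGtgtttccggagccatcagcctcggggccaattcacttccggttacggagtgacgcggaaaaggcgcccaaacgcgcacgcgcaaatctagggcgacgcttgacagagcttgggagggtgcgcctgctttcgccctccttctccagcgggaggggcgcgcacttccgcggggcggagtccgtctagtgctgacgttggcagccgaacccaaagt
In XBP1 the element spans bases 52 to 34 before the first of 2 listed start sites, in HSPA5 bases 66 to 48, in SDF2L1 bases 188 to 178 and in SERP1 bases 232 to 214, the last pair on the opposite strand. ERSE was present in 0.136% of the 11768 tested genes with a listed promoter, in 0 of 279 higher and in 2 of 390 lower genes. Those 2 are XBP1, the target of the shRNA, and HSPA5, both shown above. ERSE-II was present in 0.119% of the tested, 1 of the 279 higher and 0 of the 390 lower genes. That 1 is SDF2L1, also shown above, so that these counts add no gene to those displayed. The core of the XBP1 element TGACGTG was present on either strand in 2.76% of tested genes. It was present in 5 of 279 higher (1.79%) and 10 of 390 lower genes (2.56%). Whether these small counts differ from the share of all tested genes was not tested. Of listed XBP1s targets with a promoter, 5 of 34 held this core and 2 of 34 ERSE. For ATF6 targets these were 1 of 13 and 5 of 13. A match is a stretch of letters and not a measured site.

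Among targets of PERK and ATF4, which include genes for making and importing amino acids and stress factors such as DDIT3, 6 of 28 tested members were higher and 0 lower by edgeR, beside 2.07% and 3.03% of all genes, and the median log2 fold change was 0.15. DESeq2 gave the same counts, and 13 members above 0 and 2 below 0 had an unadjusted p under 0.05. ASNS, the asparagine synthetase, had 48.5, 48.8 and 49.5 CPM in control and 65.8, 64.1 and 64.0 CPM in knockdown cells (log2 fold change 0.39, standard error 0.0611, adjusted p = 0.00145). No library of one group reached the other, and the ASNS call held in all 6 fits without 1 library. SHMT2, a mitochondrial serine hydroxymethyltransferase, rose by 0.30, and SLC7A5 and SLC3A2, the light and heavy chains of an amino acid transporter, by 0.28 and 0.27 on the log2 scale. The 6 calls became 2 without replicates 1 or 2 of the control or replicate 2 of the knockdown and 7 without replicate 3 of the control. ATF4 mRNA (log2 fold change 0.0072) and DDIT3, which encodes CHOP (0.21, adjusted p = 0.445), were not called. Of 10 tested IRE1 substrates, mRNAs that IRE1α is reported to cut besides XBP1, 2 were lower, beside 3.03% of all genes. DGAT2, an enzyme of triglyceride synthesis, fell by 0.68 on the log2 scale from 9.05, 10.6 and 11.3 CPM to 6.93, 6.31 and 6.18 CPM (adjusted p = 0.0103). PDGFRB fell by 1.18 (adjusted p = 0.0357), a call that held only without replicate 3 of either group, and BLOC1S1, the substrate most often measured, had a log2 fold change of 0.11 (adjusted p = 0.661).

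At mean levels of log2 CPM 3 or more, the largest decreases were in genes outside the unfolded protein response. The 15 lowest had log2 fold changes from −1.85 to −1.17, and each stayed called in all 6 fits without 1 library. H19, an imprinted non-coding RNA, had 509, 531 and 489 CPM in control and 174, 124 and 127 CPM in knockdown cells (log2 fold change −1.85, standard error 0.0984, adjusted p = 4.79e-08). MEIS3, a homeobox gene, had 169, 160 and 158 CPM in control and 62.9, 57.5 and 57.5 CPM in knockdown cells (log2 fold change −1.46, adjusted p = 6.81e-09). The receptor tyrosine kinase AXL went from 24.99, 23.8 and 26.3 CPM to 8.06, 8.87 and 10.3 CPM. Every knockdown library lay below every control library in each, which the choice of genes required.

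UCHL1, a deubiquitinating enzyme of neurons and many tumours, had 125, 116 and 123 CPM in control and 48.3, 53.2 and 51.5 CPM in knockdown cells (log2 fold change −1.26, adjusted p = 2.28e-08). S100A4, a calcium-binding protein linked to cell motility, had 57.6, 62.8 and 58.5 CPM in control and 23.9, 21.4 and 26.7 CPM in knockdown cells. The metalloproteinase inhibitor TIMP2 had 30.1, 29.2 and 30.3 CPM in control and 12.7, 10.6 and 12.1 CPM in knockdown cells, which is 39.2% of control. CHP1, a calcineurin-like calcium-binding protein, fell by 1.26 on the log2 scale, the quinone oxidoreductase CRYZ by 1.17, the Golgi mannosidase MAN1C1 by 1.28 and the inflammasome sensor NLRP1 by 1.29. CCM2L, a scaffold gene of endothelial signalling, fell by 1.79, LRRC4B, a synaptic adhesion gene, by 1.22, and ENSG00000125695, for which the tables hold no symbol, by 1.44. The last of these overlaps the tested genes CCDC47 and STRADA on the same strand in the annotation. It spanned 12.5 to 23.8 CPM within the control group. With all 18 libraries in one fit it was the 1 gene among the 15 that was not called.

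The 15 highest genes had log2 fold changes from 0.84 to 2.34. AK4, a mitochondrial adenylate kinase, had 6.50, 5.75 and 5.83 CPM in control and 30.5, 29.6 and 31.7 CPM in knockdown cells, a 5.06-fold difference (log2 fold change 2.34, standard error 0.102, adjusted p = 9.89e-09). CDK6, a kinase of the G1 phase, had 6.19, 8.33 and 6.63 CPM in control and 20.6, 21.5 and 28.1 CPM in knockdown cells (log2 fold change 1.72, adjusted p = 4.36e-06). The matrix proteoglycan VCAN had 7.66, 9.50 and 7.77 CPM in control and 23.9, 22.6 and 26.9 CPM in knockdown cells (log2 fold change 1.55). BAALC, which is expressed in neuroectoderm and in progenitors of blood, rose by 1.58, and ARHGDIB by 1.12. Glycogen phosphorylase PYGL had 24.0, 25.9 and 23.6 CPM in control and 53.1, 51.9 and 49.3 CPM in knockdown cells. The transcription factor gene MYCN had 6.11, 6.85 and 7.23 CPM in control and 13.7, 12.3 and 12.8 CPM in knockdown cells (log2 fold change 0.93, adjusted p = 0.000468). The others were TRABD2A (1.06), the metallothionein MT1X (1.03), THSD4 (0.98), the potassium channel KCNMA1 (0.97), MDFIC (0.95), C7orf25 (0.93), the mucin MUC15 (0.89) and PCP4 (0.84). C7orf25 was not called without replicate 1 or 2 of the control (log2 fold change 0.77 to 1.13) and the other 14 stayed called in all 6 fits without 1 library. Of these 30 genes, 12 overlap another tested gene in the annotation, 3 of them on the same strand, and whether counting used strand is not given in the sources used here.

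**Figure D3:**
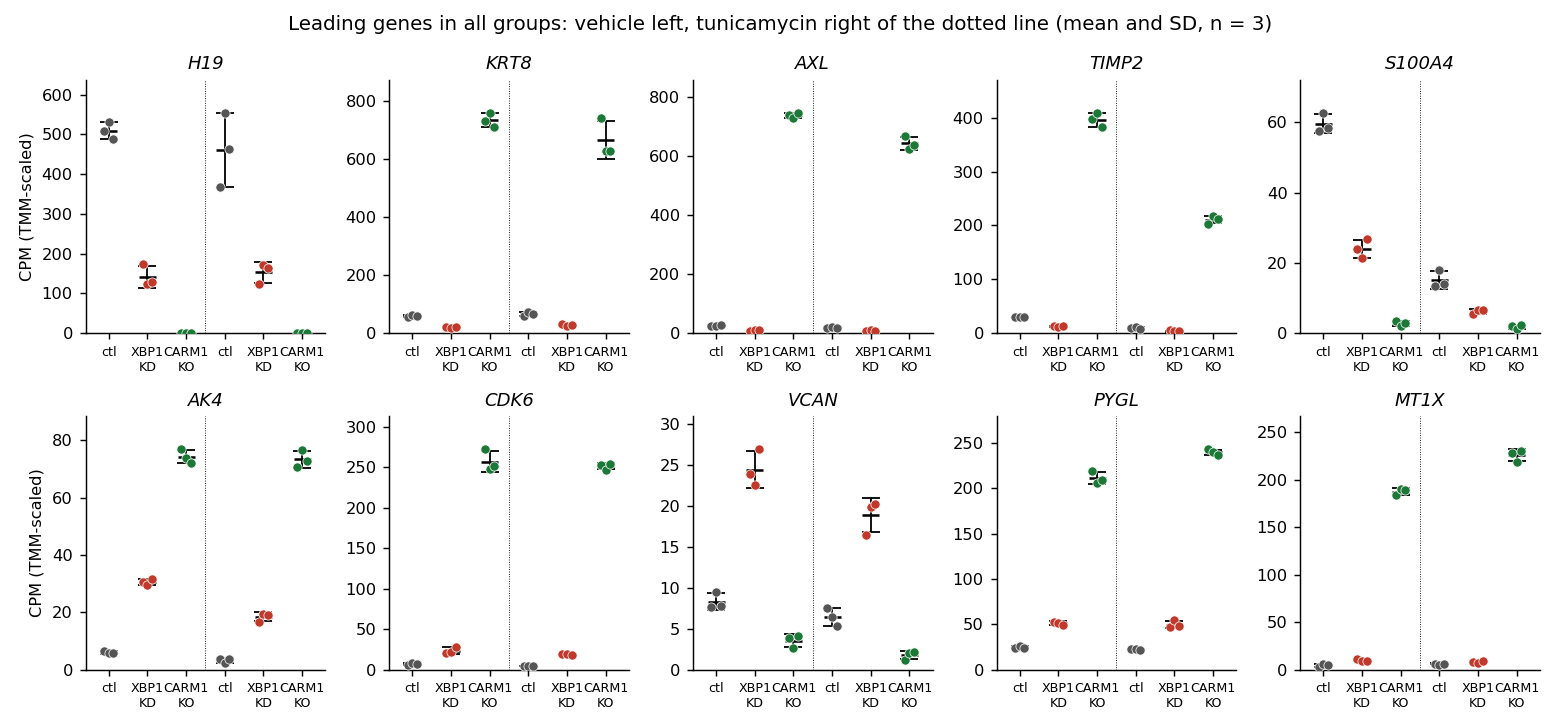
CPM of 5 genes among the lowest (upper row) and 5 among the highest (lower row), in control (grey), knockdown (red) and CARM1 knockout (green) libraries, with vehicle on the left and tunicamycin on the right of the dotted line, as points per library with mean and SD (n = 3) on linear axes from 0. The red points lie below the grey points in the upper row and above them in the lower row under vehicle, while the CARM1 knockout libraries lie outside the range of both for every gene under vehicle.

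Of 9 tested keratins 3 were lower, 0 higher and 6 not called by edgeR, beside 3.03% lower and 2.07% higher over all genes. DESeq2 called 2 lower and 0 higher. The list was added after values had been seen. With at least 10 counts in at least 3 of the 6 libraries there were 4 keratins, of which 2, KRT8 and KRT18, were lower. KRT8 had 54.2, 61.1 and 60.0 CPM in control and 19.96, 17.8 and 20.01 CPM in knockdown cells (log2 fold change −1.61, standard error 0.0817, adjusted p = 3.05e-08). Its partner KRT18 had 254, 259 and 268 CPM in control and 108, 123 and 113 CPM in knockdown cells (log2 fold change −1.19, standard error 0.0581, adjusted p = 2.28e-08). These type II and type I keratins form the filaments of simple epithelia, and they lie next to each other on chromosome 12, with overlapping ends. They account for most of the lower sum of ovarian epithelial markers given above. Of the 13 tested markers 4 were lower and 0 higher by edgeR, also at an unadjusted p under 0.05. The shares over all genes are those given for the keratins. DESeq2 called 2 lower and 0 higher. With at least 10 counts in at least 3 of the 6 libraries there were 6 markers, of which 3 were lower by edgeR. KRT19 had at most 16 counts in a control and at most 2 in a knockdown library, and ELF3 fell by 0.70 on the log2 scale. Neither stayed called in more than 1 of the 6 fits without 1 library, and both held without replicate 3 of the control and were lost without any other replicate of the control or any replicate of the knockdown. EPCAM was not called (log2 fold change −0.068).

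A list of 35 actin cytoskeleton genes was written after values had been seen and is a description only. In it 10 genes were lower and 1 higher, beside 3.03% and 2.07% of all genes, and 24 were not called. With 1 library left out, 7 to 11 were lower. TMSB4X, the actin monomer binder thymosin beta, had 147, 152 and 153 CPM in control and 88.1, 72.7 and 68.5 CPM in knockdown cells (log2 fold change −0.99). CNN1, a calponin of smooth muscle type, had 90.8, 86.2 and 92.6 CPM in control and 50.1, 47.0 and 48.9 CPM in knockdown cells (log2 fold change −0.89, adjusted p = 6.37e-07). ACTA2, the smooth muscle actin that also stands on the stromal marker list, had 481, 490 and 439 CPM in control and 305, 290 and 275 CPM in knockdown cells (log2 fold change −0.70). The filament cross-linkers PALLD and FLNA fell by 0.89 and 0.51 and the tropomyosin TPM1 by 0.35 on the log2 scale. All of these stayed called in each fit without 1 library. MYH9, the heavy chain of non-muscle myosin, was the member that rose (0.32, adjusted p = 0.00831), and this call was lost without replicate 2 of the control. Whether the stromal and epithelial marker sums move with these genes through a shift of cell kinds was not tested.

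Of 25 matrix genes that passed the filter over all 18 libraries, 17 had at least 10 counts in at least 3 of the 6 libraries compared. Of these 17, 2 were higher and 6 lower, beside 2.07% and 3.03% of all genes, and their median log2 fold change was −0.23. The lower genes numbered 3 without replicate 2 of either group and 4 without replicate 1 of the control or replicate 3 of the knockdown. TIMP3, a matrix-bound inhibitor of metalloproteinases, had 38.5, 40.9 and 36.6 CPM in control and 19.8, 15.3 and 17.2 CPM in knockdown cells (log2 fold change −1.16, adjusted p = 4.85e-06). The collagen gene COL1A1 fell by 0.66 on the log2 scale. Against these, VCAN (above) and the laminin chain LAMB1 rose, the latter from 19.5, 19.2 and 20.7 CPM to 27.0, 33.8 and 33.5 CPM (log2 fold change 0.66). TIMP1, on a list of TIMP genes added after values had been seen, was not called, with 95.0 to 148 CPM in control and 107 to 161 CPM in knockdown cells, so that 2 of the 3 TIMP genes with such counts were lower.

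Among cell cycle genes, 4 of 28 tested mitosis genes were lower, beside 3.03% of all genes, and 24 had log2 fold changes below 0 (median −0.12), beside 8772 of all 17317 genes, and the count was 9 without replicate 3 of the control and 2 without replicate 2 of either group. TOP2A, which untangles DNA before chromosome separation, had 1503, 1503 and 1367 CPM in control and 1024, 1035 and 1052 CPM in knockdown cells (log2 fold change −0.50, standard error 0.0451, adjusted p = 8.93e-06). NUSAP1, a spindle protein, fell by 0.33. Of 32 DNA replication genes 0 were called by edgeR, while DESeq2 called 2 higher and 4 had an unadjusted p under 0.05. Of 76 ribosomal protein genes 10 were higher, beside 2.07% of all genes, and 66 were not called, while 68 had log2 fold changes above 0 (median 0.099). This count was 0 without replicates 1 or 2 of the control or 2 of the knockdown, 1 without replicate 3 of the knockdown and 24 without replicate 3 of the control, and 33 members had an unadjusted p under 0.05. The nuclear genes of the respiratory chain resembled them, with 4 of 56 higher, 54 above 0 and a median of 0.11, and the count was 1 without replicate 2 of either group, 2 without replicate 1 of the control and 18 without replicate 3 of the control, and DESeq2 called 8. NDUFA10, a subunit of complex I, rose by 0.30 and was called in each fit without 1 library.

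Of all genes, 2.07% were higher and 3.03% lower, beside which the following counts stand. In cholesterol synthesis, 3 of 24 were higher and 21 had log2 fold changes above 0 (median 0.11). HSD17B7 rose by 0.55 and HMGCS1 by 0.27 on the log2 scale, and the 3 calls became 0 without replicate 1 of the knockdown and 1 without replicates 1 or 2 of the control or 2 of the knockdown. Fatty acid and phospholipid synthesis had 0 of 17 called by edgeR or DESeq2 and 3 with an unadjusted p under 0.05. Of 20 hypoxia and glycolysis genes 3 were higher, AK4 among them, and AK4 was the only one called in all fits without 1 library, the count being 1 without replicates 1 or 2 of the control or 2 or 3 of the knockdown and 5 without replicate 3 of the control. Of 17 NRF2 targets 3 were higher, with FTL, the ferritin light chain, at 239, 247 and 254 CPM in control and 312, 332 and 337 CPM in knockdown cells (log2 fold change 0.40, adjusted p = 0.000276). That count became 1 without replicates 1 or 2 of the control or 2 of the knockdown. HSPB1, a small heat shock protein, fell by 0.29 and was the 1 of 12 heat shock genes called, with 2 without replicate 1 of the control. Of 17 p53 targets 1 was higher and 2 lower, with GDF15, a stress cytokine, at 12.8, 15.1 and 14.7 CPM in control and 7.23, 8.02 and 10.3 CPM in knockdown cells (log2 fold change −0.74). The lower p53 targets numbered 1 without replicates 1 or 2 of the control or 2 or 3 of the knockdown, and the higher ones 0 without replicate 1 of the control. Of 21 immediate early genes 3 were higher, or 1 without replicate 1 of either group, and DUSP6, a phosphatase that dampens ERK, rose by 0.28 and kept its call in each fit without 1 library. Of 9 arginine methyltransferases CARM1 was the 1 called.

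Short hairpins can set off the interferon response to double-stranded RNA, so its genes were listed. Of 22 tested interferon response genes 0 were higher and 2 lower by edgeR and by DESeq2. At an unadjusted p under 0.05 there were 0 above 0 and 3 below 0. Only 16 of the 22 had at least 10 counts in at least 3 of the 6 libraries, with 0 higher and 2 lower by edgeR. BST2, which tethers virus particles, had 5.57, 5.82 and 6.03 CPM in control and 1.96, 0.851 and 0.983 CPM in knockdown cells (log2 fold change −2.21, standard error 0.27, adjusted p = 0.00019), a call kept in each fit without 1 library. RIGI, the sensor of viral RNA, fell by 0.65, a call that held in 2 of 6 such fits and was lost without replicates 1 or 3 of the control or 2 or 3 of the knockdown (−0.78 to −0.55). Of 13 genes of the RNA interference machinery 0 were called by edgeR and 1 lower by DESeq2, with 2 at an unadjusted p under 0.05 and 1 called without replicate 3 of the control. Over all genes 2.07% were higher and 3.03% lower. In MHC class I and peptide loading 1 of 14 was higher and 2 lower, the latter 1 in each fit without 1 library other than that without replicate 3 of the knockdown. B2M, the light chain of MHC class I, had 302, 311 and 324 CPM in control and 374, 365 and 396 CPM in knockdown cells (log2 fold change 0.27). The peptide transporter TAP1 fell by 0.62, a call lost without replicate 2 of the control (−0.71 to −0.53).

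**Figure D4:**
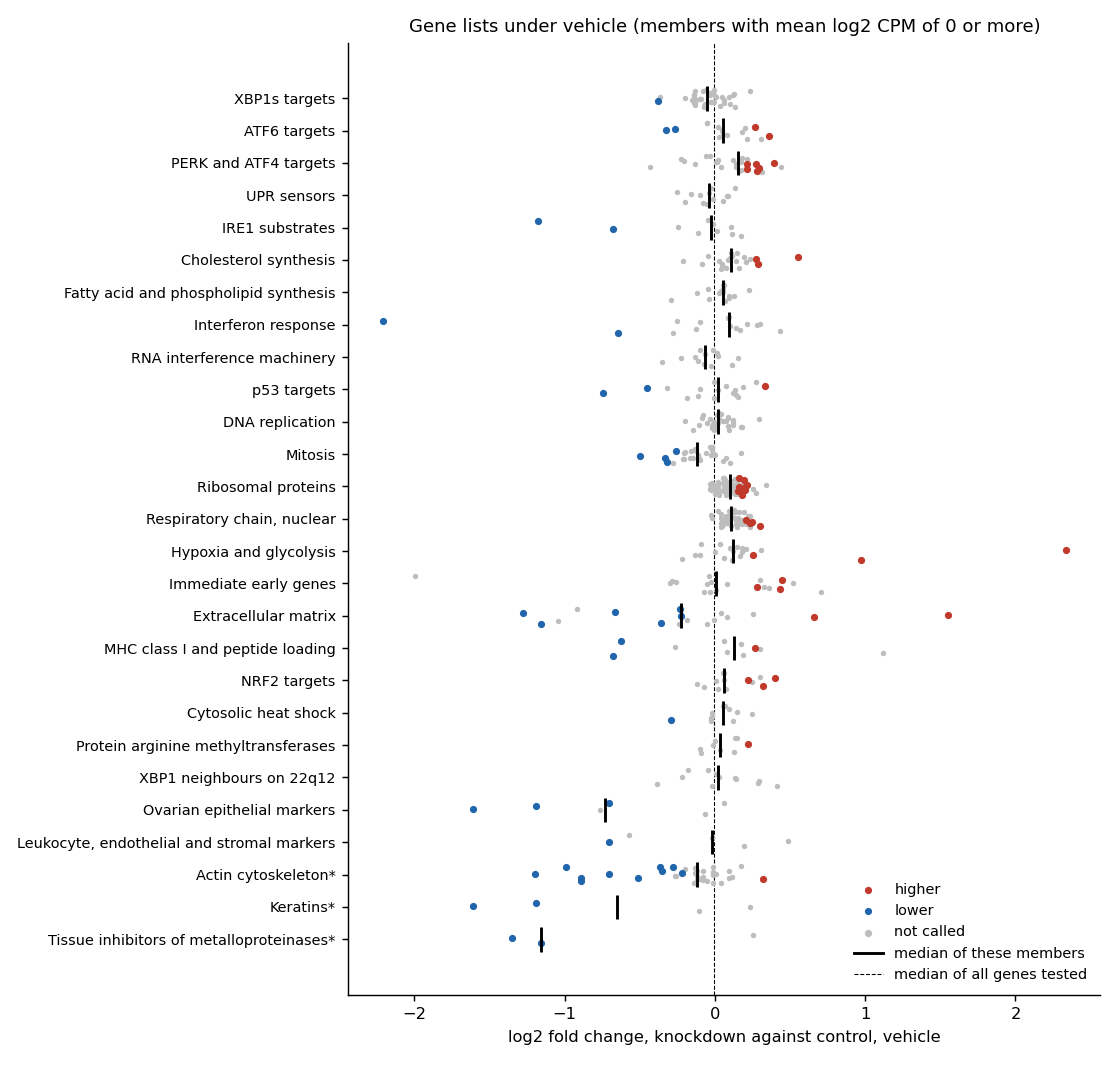
Log2 fold changes, knockdown against control under vehicle, of the members of each list with a mean log2 CPM of 0 or more (points), with higher genes in red, lower genes in blue, the median of these members (thick line) and the median of all genes tested (dashed line). Lists with an asterisk were added after values had been seen. The XBP1s targets sit within 0.4 of 0. The lists with an asterisk (keratins, metalloproteinase inhibitors and actin cytoskeleton) reach below −0.9. So do lists without one, with BST2 of the interferon response at −2.21, PDGFRB of the IRE1 substrates at −1.18 and TIMP3 of the matrix genes at −1.16.

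The same knockdown was compared with control under tunicamycin, which shares no library with the vehicle comparison but the same cell lines. There 1210 genes were higher (6.99%) and 1481 lower (8.55%). Of the 883 genes called under vehicle, 541 (61.3%) were called in the same direction under tunicamycin, 6 in the opposite direction and 336 were not called. The 541 genes are 20.1% of the 2691 calls under tunicamycin. In this set, chosen by calls under both treatments, the median size of the log2 fold change was 0.44 under vehicle and 0.49 under tunicamycin. In the 336 genes not called under tunicamycin it was 0.42 and 0.17. Without 1 vehicle library the 541 became 315 to 627, with the lowest number without replicate 2 of the control, 327 without replicate 2 of the knockdown and 344 without replicate 1 of the control. Of the 15 lowest genes 14 and of the 15 highest genes 13 were called in the same direction with tunicamycin. KRT18 had −1.19 and −1.21, AK4 2.34 and 2.50, VCAN 1.55 and 1.55, and TIMP2 −1.35 and −1.26 under vehicle and tunicamycin. Interaction terms were called for 353 of all genes tested (2.04%) and for 41 of the 883, and for 0 of the 30 leading genes. The 883 and the 30 were chosen by vehicle values that also enter this term. Their counts are therefore a description, and 0 of 30 does not show that the effects are equal. The 41 became 13 without replicate 2 of the knockdown, 14 and 16 without replicates 2 and 1 of the control, 22 without replicate 3 of the knockdown, 104 without replicate 3 of the control, 24 without replicate 3 of the tunicamycin-treated control, and 25 and 23 without replicates 2 and 3 of the tunicamycin-treated knockdown. XBP1 itself had −0.86 under vehicle and −1.06 under tunicamycin, with an interaction of −0.22 (adjusted p = 0.308).

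The XBP1s targets behaved otherwise. Of the 40 members, 1 was lower under vehicle and 35 under tunicamycin, beside 3.03% and 8.55% of all genes. The medians were −0.049 and −0.48 on the log2 scale. For 24 of the 40 the interaction was called below 0, beside 290 of all 17317 genes tested. For ATF6 targets, 9 of 16 were lower with tunicamycin and 7 interactions were called below 0, beside the same shares of all genes. SEC24D, a COPII coat gene, had log2 fold changes of −0.073 and −1.19, SEC31A of 0.0044 and −0.78, ERLEC1 of −0.011 and −0.85, SSR1 of −0.0025 and −0.68, and SERP1 of 0.064 and −0.65. SDF2L1, higher under vehicle, had a log2 fold change of 0.0016 under tunicamycin. HSPA5 was lower by a like amount without and with tunicamycin, at −0.32 and −0.39, with an interaction of −0.09 (adjusted p = 0.404).

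**Figure D5:**
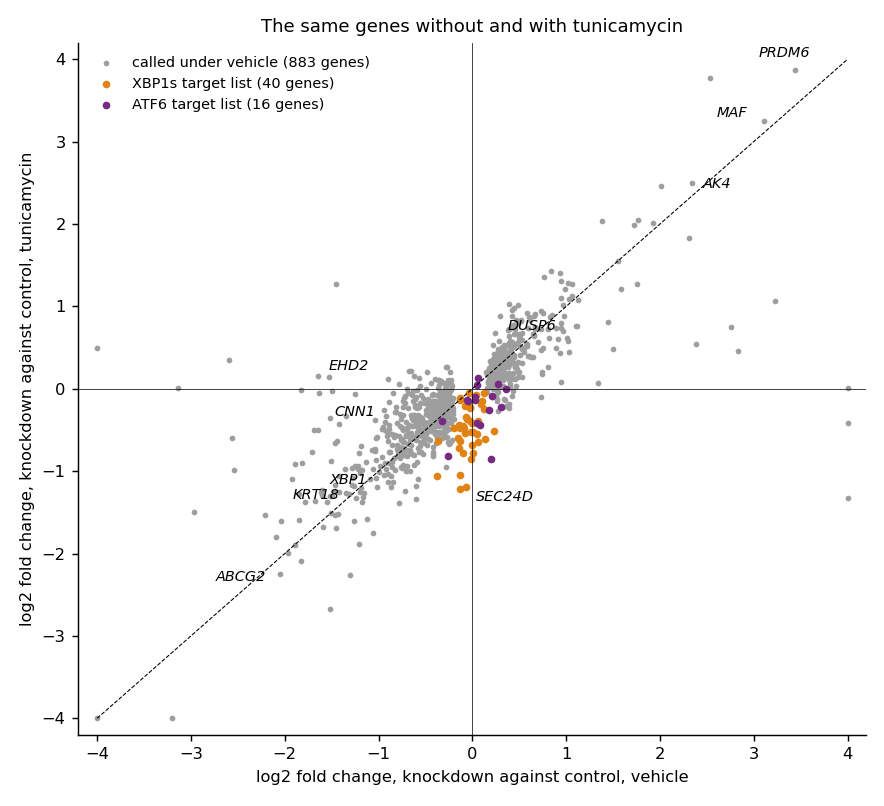
Log2 fold change, knockdown against control, under vehicle (x axis) and under tunicamycin (y axis), for the 883 genes called under vehicle (grey), the 40 XBP1s targets (orange) and the 16 ATF6 targets (purple), with values beyond 4 drawn at 4 and a dashed line of equal values. Of the 883 grey points 828 have the same sign under both treatments, but they scatter about the dashed line. The correlation was 0.29 for the higher and 0.55 for the lower genes. The orange points form a column near 0 on the x axis that reaches below −1 on the y axis.

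Median log2 CPM was 5.92 for higher, 4.95 for lower and 3.61 for all genes tested, and low genes have less depth behind their calls. Protein-coding genes made up 340 of the higher and 481 of the lower genes among 13533 tested, and long non-coding genes 9 and 26 of 2154. By chromosome, the share of higher genes ran from 1.04% on X to 3.48% on chromosome 10, and that of lower genes from 1.85% on chromosome 14 to 4.53% on chromosome 1, where 77 of 1698 tested genes were lower. Median log2 fold changes per chromosome lay between −0.026 and 0.0066.

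CARM1 knockout cells under vehicle are set beside the knockdown for the leading genes. Both use the same 3 control libraries, so that the differences are not independent. The CARM1 knockout libraries also stand apart in markers such as PAX8 and PDGFRA, as given above, and the cause was not tested. KRT18 was 260 ± 7.09 CPM (SD, n = 3) in control, 115 ± 7.52 CPM in knockdown and 1482 ± 14.1 CPM in CARM1 knockout cells. AXL was 25.03 ± 1.26, 9.06 ± 1.11 and 737 ± 8.95 CPM in the same order, and TIMP2 29.9 ± 0.571, 11.8 ± 1.08 and 396 ± 12.8 CPM. H19 was lower in both, at 509 ± 21.0, 142 ± 28.1 and 0.194 ± 0.134 CPM. CDK6 was higher in both, at 7.05 ± 1.13, 23.4 ± 4.08 and 257 ± 13.3 CPM. MYCN was 6.73 ± 0.57 and 12.9 ± 0.695 CPM and listed at 0 in all CARM1 knockout libraries, as were BAALC, MUC15, PCP4 and TIMP3. XBP1 itself was 45.9 ± 4.50, 25.4 ± 1.25 and 33.9 ± 6.49 CPM.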

How the data were processed

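RNA of A1847 cells was measured in 18 libraries by 3 prime end mRNA sequencing with 75 nt single reads. The authors aligned reads with bowtie2 to hg19 and deposited expected counts per Ensembl gene, estimated with RSEM (version 1.2.12 in the methods, 1.2.3 in the submitters' processing notes) and given as whole numbers. Samples were grouped by GEO's labels, and the members and gene lists were chosen with earlier results of these data known.

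Of 57736 genes, 17317 passed filterByExpr (minimum count 10) over all 18 libraries. The quasi-likelihood test of edgeR set the 3 knockdown against the 3 control libraries under vehicle (version 4.0.16, R 4.3.3), with TMM normalisation, Benjamini-Hochberg adjustment over all tested genes and a threshold of 5%. Adjusted p-values are from this test, standard errors are the log2 fold change divided by the root of F, and printed CPM use TMM factors over 18 libraries. Tunicamycin libraries were fitted alike, and the interaction over the 4 groups of 12 libraries. In simulated counts the test recovered planted changes, and false calls exceeded the nominal rate. An exact permutation test of 3 against 3 cannot go below p = 0.1.

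Genes were named if they were members of the unfolded protein response lists, called members of other lists, markers, or among the 15 lowest and 15 highest called genes at log2 CPM 3 or more on average whose groups did not overlap. Genes of the actin, keratin and TIMP lists, and those in the closing observations, were chosen after values had been seen. Alternatives were DESeq2 1.42.0, its size factors, other count filters, 1 fit over all 18 libraries, a stricter FDR, a replicate block, a fold threshold of 1.5, and leaving out each library. Counts of list members with at least 10 counts in at least 3 of the 6 libraries compared were added after seeing the data. Some items are not reported here.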

Additional observations from a re-analysis of the deposited data

Results flagged for a closer look

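The knockdown effect differed between treatments for 16 of the 102 genes named, by the interaction term of edgeR (effect under tunicamycin minus effect under vehicle, log2 scale, adjusted over all genes tested, 3 libraries per group). Over all genes tested the term was called for 353 of 17317 (2.04%). The named genes came from stress response lists, from the largest vehicle changes or from values already seen. Their count is therefore not a rate to set against that share. Among genes of the secretory pathway the difference was −1.14 for SEC24D (adjusted p = 0.000459), −0.86 for ERLEC1 (adjusted p = 2.56e-06), −0.81 for SEC31A, −0.76 for EDEM1 (adjusted p = 0.0456), −0.74 for SERP1, −0.70 for SSR1, −0.70 for ARFGAP3, −0.57 for SELENOS and −0.47 for LMAN1. It was −0.44 for the sensor ATF6 (adjusted p = 0.018). SDF2L1, with −0.38 (adjusted p = 0.0279), was higher under vehicle and at 0.0016 under tunicamycin. HMGCS1, of cholesterol synthesis, had 0.27 under vehicle and −0.27 under tunicamycin, a difference of −0.57 (adjusted p = 0.00313). The difference was positive for DUSP6, at 0.28 (adjusted p = 0.0416), for PDGFRA, a growth factor receptor gene on the stromal marker list, at 0.42 (adjusted p = 0.00111), for CNN1, at 0.43 (adjusted p = 0.0163), and for EHD2, at 1.79 (adjusted p = 0.0356). EHD2, a membrane-bending ATPase at caveolae, had −1.65 under vehicle and 0.16 under tunicamycin.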

How the results depend on the processing

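The XBP1 decrease kept its direction and call under each alternative run. The 359 higher genes became 662 with no filter on low counts, 696 with all 18 libraries in one fit, 125 at an FDR of 1% and 79 at 1.5-fold, and 146 to 580 without 1 library. The 524 lower genes became 252 at an FDR of 1%, 237 at 1.5-fold, and 289 to 654 without 1 library. The 541 genes called in the same direction under tunicamycin became 236 at an FDR of 1%, 159 at 1.5-fold, and 315 to 627 without 1 library. The 41 genes whose effect differed under tunicamycin became 188 with no filter, 97 with all libraries in one fit, 5 at an FDR of 1%, and 13 to 104 without 1 library. The cause was not tested. With the replicate number as a block, 313 genes were higher, 476 lower, 507 shared with tunicamycin and 24 differed from it, but same-numbered libraries did not deviate together (correlations of 0.031, −0.011 and −0.027 across genes), so that they share only a number. For the 102 genes named, 1229 of 1305 combinations of gene and setting kept direction and side of the threshold, 72 lost the call, 4 gained it and 0 changed direction. Genes with few counts, such as KRT19, are limited by depth.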

Other observations

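The genes in this section were chosen after values had been seen. Several transcription factor genes were higher in the knockdown under vehicle. PRDM6 had 0.774, 0.442 and 0.402 CPM in control and 6.85, 4.68 and 6.18 CPM in knockdown cells (log2 fold change 3.44, edgeR adjusted p = 6.17e-06), and MAF rose by 3.10. The lineage factor NKX2-1 had 76.4, 70.1 and 74.2 CPM in control and 121, 116 and 114 CPM in knockdown cells (log2 fold change 0.66), and PAX2 rose by 0.59. NR2F2, a nuclear receptor gene, fell by 0.69, and BMP4, a secreted morphogen, by 1.04.

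Other genes are given with their log2 fold changes under vehicle and then under tunicamycin. ABCG2, a drug efflux pump, had 9.36, 9.36 and 9.44 CPM in control and 1.58, 2.48 and 2.74 CPM in knockdown cells, with log2 fold changes of −2.05 under vehicle and −2.25 under tunicamycin. ARL1, a GTPase of the Golgi, had −0.90 and −1.13, and ZFAND3, a zinc finger gene, −0.94 and −1.05. The retinoic acid binding protein gene CRABP2 had 555, 557 and 573 CPM in control and 321, 323 and 350 CPM in knockdown cells, with −0.77 and −0.71. The apolipoprotein gene APOC1 had 0.76 and 0.92 and the glutathione transferase gene MGST1 0.83 and 0.88. IGF2, the imprinted neighbour of H19, was near the counting floor at 0.0737 to 0.335 CPM in control and 0.142 to 0.602 CPM in knockdown cells and was not called (adjusted p = 0.573).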
